A study of Homo sapiens with 32 samples.

Results

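The nuclear genes for proteins of the mitochondrial ribosome were measured in K-562 cells made resistant to tyrosine kinase inhibitors and in naive K-562 cells. The members are array features whose gene symbol starts with MRPL or MRPS followed by digits. The pattern matched 87 features, of which 82 belonged to 73 protein-coding genes, among 14884 named genes in all. Of these genes, 48 are named for the large subunit and 25 for the small subunit. Left out were 3 pseudogenes (MRPS31P5, MRPL42P5 and MRPL45P2) and 2 antisense RNAs (MRPL23-AS1 and MRPL20-AS1). Where a gene had several features, its brightest feature by mean over all 32 arrays was kept, which concerned 4 members. The rule used no difference between groups. MRPL12, MRPS6, MRPS18C and MRPS24 were not analysed here.

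K-562 is an established human leukaemia line with erythroid features that carries the Philadelphia chromosome fusion kinase, the target of imatinib and nilotinib. Resistance was raised by stepwise increase of drug, to 0.1 µM nilotinib, to 2 µM imatinib (high-imatinib) or to 0.5 µM imatinib (low-imatinib), and the fourth group is naive cells. Each resistance has 2 biological replicates, called line 1 and line 2 here, and the naive titles carry the letters S and K, whose meaning is not stated, so that each letter was counted as 1 naive set. Each of the 8 sets was run on 4 technical replicate arrays. The growth text is the same for all samples and describes medium without either drug, so whether drug was present at harvest cannot be read from the labels. The array is a whole-transcript microarray, and its deposited values are on a log2 scale, where a difference of 1 is a 2-fold difference in signal. Nothing in the labels says that the lines of a resistance came from separate selections, so the p-values measure the spread between these 8 sets.

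A few facts of the whole series bear on what follows. Values ran from 1.244 to 14.19, and correlations between arrays of a set from 0.952 to 0.991. Of the fixed markers, the K-562 lineage was represented by 5 measured genes of 12, GATA1, KLF1, GFI1B, EPOR and TAL1, with mean levels of 7.34 to 9.42, all above the median of all genes, 6.49. The measured blood-cell markers of other lineages, LYZ, NKG7, MPO and CD14, lay at 5.62 to 7.04. The 4 measured markers of epithelium and fibroblasts were DCN at 4.26, KRT8 at 7.60, EPCAM at 7.84 and KRT18 at 9.77. Their median, 7.72, lay beside that of the K-562 lineage genes, 7.69, so these levels do not set the lineage apart from epithelium. EPCAM ran from 5.86 in high-imatinib line 1 to 9.26 in low-imatinib line 1. The largest axis of variation among arrays of the same set, which is technical by design and is called the technical axis here, took 16.8% of the variance within sets. Its mean scores were 21.19 and 12.28 in the nilotinib pair, -2.133 and 2.731 in the high-imatinib pair, 6.088 and 5.692 in the low-imatinib pair, and -20.76 and -25.09 in naive S and naive K. All 73 members had a positive loading on it, as did 85.9% of the genes of similar mean level and 56.5% of all genes; the naive sets had the lowest scores. The scores thus differ along the comparison with naive cells, so taking the axis out also removes any real difference that lies along it. Technical and real differences along the axis cannot be told apart here. Results are given with the axis taken out where that changes them.

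The mitochondrial ribosome translates the few proteins encoded in mitochondrial DNA, which are core subunits of the respiratory chain and of ATP synthase. Its RNAs come from mitochondrial DNA, while all of its proteins are encoded in the nucleus, made in the cytosol and imported. Some of the proteins descend from those of the bacterial ribosome, and others are specific to mitochondria. Blood cell precursors of the erythroid series need mitochondria for haem synthesis, and MRP genes are expressed in all nucleated cells.

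The promoters of members carried short motifs of housekeeping transcription factors more often than promoters at large, which is a description of the sequence and not of binding. RefSeq promoter windows (build GRCh38.p14, 250 bases before to 50 after the gene's start) were found for 65 of the 73 members. The window was searched on both strands for the letters GCGCATGC (nuclear respiratory factor 1), CCGGAAGT (ETS factors such as GABPA), AAGATGGC (YY1) and GGGCGG (SP1). AAGATGGC or its reverse complement stood in 29.2% of member windows and in 3.03% of all 27305 windows. CCGGAAGT stood in 16.9% of member windows against 4.44% of all, GCGCATGC in 7.69% against 3.27%, and GGGCGG in 61.5% against 44.6%. The windows of all genes were not limited to measured genes or matched to the members by level. In 4 member windows matches of these motifs overlapped each other, and 26 members had a match to at least 1 of the motifs other than GGGCGG. A divergent neighbour, which is a gene on the other strand whose start lies within 1000 bases upstream, was found for 20 of the 65 members (30.8%), against 16.6% of all genes with a window. MRPL46 and MRPS11 are such a pair of members, with starts 320 bases apart. The 250 bases before the start follow for members that passed the test against naive cells, MRPL47 (chr3:179604639-179604888, minus strand) and MRPS16 (chr10:73252645-73252894, minus strand), for MRPL16 (chr11:59810779-59811028, minus strand), which varied most between sets, and for MRPL27 (chr17:50373185-50373434, minus strand), whose start lies 45 bases from that of EME1. Capitals mark matches to any of the motifs above on either strand. MRPL47 holds a YY1 and an ETS match, MRPS16 a single SP1 match, MRPL16 SP1 matches, and MRPL27 repeated ETS matches.
MRPL47: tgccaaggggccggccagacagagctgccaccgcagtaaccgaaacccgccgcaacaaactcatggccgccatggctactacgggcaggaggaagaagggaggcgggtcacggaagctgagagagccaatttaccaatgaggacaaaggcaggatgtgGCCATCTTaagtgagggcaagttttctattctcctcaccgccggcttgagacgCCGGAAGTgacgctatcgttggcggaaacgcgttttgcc
MRPS16: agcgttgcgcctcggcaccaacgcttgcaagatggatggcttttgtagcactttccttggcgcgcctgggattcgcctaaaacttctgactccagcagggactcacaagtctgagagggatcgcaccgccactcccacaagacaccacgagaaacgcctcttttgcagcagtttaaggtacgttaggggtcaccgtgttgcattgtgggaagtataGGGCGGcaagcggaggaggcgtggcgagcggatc
MRPL16: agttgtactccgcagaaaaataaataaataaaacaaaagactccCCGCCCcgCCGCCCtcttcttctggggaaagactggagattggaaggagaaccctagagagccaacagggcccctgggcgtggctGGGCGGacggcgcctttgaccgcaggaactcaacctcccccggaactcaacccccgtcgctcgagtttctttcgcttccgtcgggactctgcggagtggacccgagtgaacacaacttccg
MRPL27: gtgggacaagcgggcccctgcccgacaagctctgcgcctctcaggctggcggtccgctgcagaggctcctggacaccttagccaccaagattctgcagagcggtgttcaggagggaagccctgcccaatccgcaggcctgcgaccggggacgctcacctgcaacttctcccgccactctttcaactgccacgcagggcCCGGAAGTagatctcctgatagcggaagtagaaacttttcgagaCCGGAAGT

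The members gave signals above those of most genes. Mean levels over the 32 arrays ran from 6.045 to 10.78 with a median of 7.86, against 6.49 for all named genes, and 68 of 73 members (93.2%) lay above that median. The highest were MRPS21, MRPS15 and MRPL45, and the lowest MRPL54, MRPL52 and MRPL1. These are hybridisation signals of different features, so the order between genes is not an order of transcript amount. Across the 8 set means a member ranged over 0.2507 to 1.939, with a median of 0.871, against a median of 0.8798 for genes of similar mean level. Genes of similar mean level are the 5765 others whose mean lies between the members' 10th and 90th percentile, 6.736 and 9.283. A range above 1 was found in 29 members (39.7%) and in 39.1% of the similar genes, so members varied about as much as genes of their level. The widest ranges were those of MRPL16, MRPL40, MRPL39, MRPL2 and MRPL35, and the narrowest those of MRPL55, MRPL23 and MRPL36.

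Median levels of the 73 members separated some lines and not others. The median was 7.97 and 7.94 in nilotinib lines 1 and 2, 7.55 and 8.07 in high-imatinib lines 1 and 2, 8.12 and 8.11 in low-imatinib lines 1 and 2, and 7.56 and 7.57 in naive S and naive K. High-imatinib line 1 thus lay at the naive sets and 5 resistant lines lay above them. As median difference of each member from the mean of its naive sets, the values were 0.41 and 0.21 in the nilotinib pair, -0.01 and 0.40 in the high-imatinib pair, and 0.52 and 0.41 in the low-imatinib pair. Genes of similar mean level gave 0.43 and 0.33, 0.18 and 0.28, and 0.28 and 0.27 in the same order. Members stood above their similar genes in both low-imatinib lines and in high-imatinib line 2, and below them in high-imatinib line 1 and both nilotinib lines. Low-imatinib line 1 held the highest set mean of 30 members (41.1%, against 11.8% of similar genes), and high-imatinib line 1 the lowest of 22 (30.1%, against 14.5%). With the technical axis taken out the median differences were -0.04 and -0.07 in the nilotinib pair, -0.17 and 0.16 in the high-imatinib pair, and 0.21 and 0.14 in the low-imatinib pair, so the nilotinib sign turned, low-imatinib line 1 stayed the highest and high-imatinib line 1 the lowest, and high-imatinib line 2 came to lie above low-imatinib line 2.

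**Figure D1:**
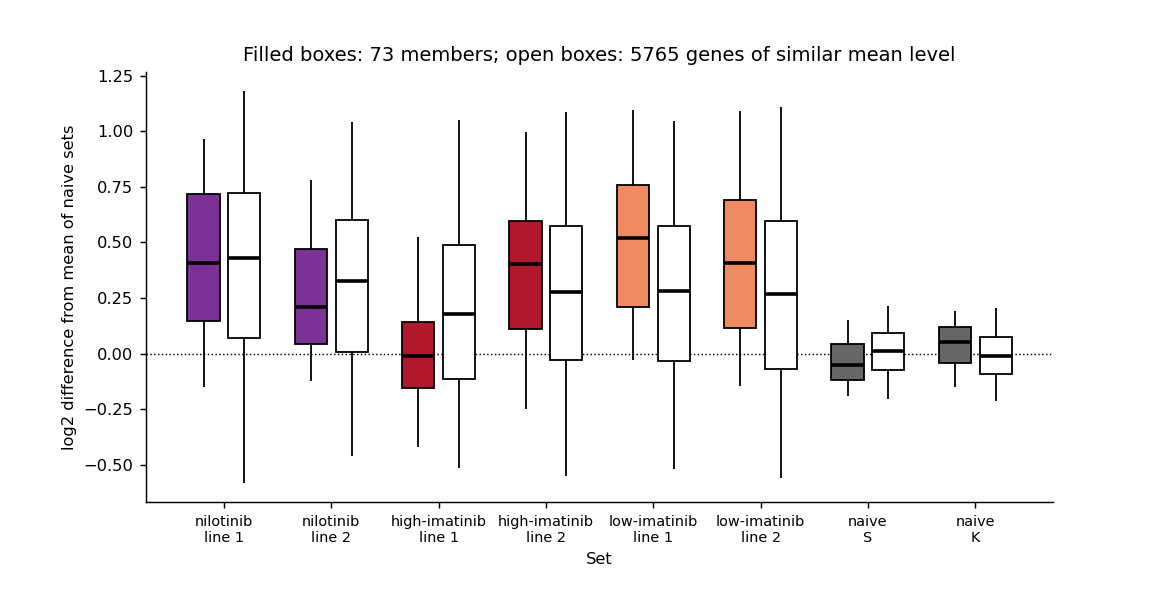
Difference of each gene from the mean of its naive sets (log2, vertical axis) in the 8 sets (horizontal axis). Filled boxes show the 73 members and open boxes the 5765 genes of similar mean level, with the median, quartiles and the 5th to 95th percentile; the member median is -0.01 in high-imatinib line 1 and 0.52 in low-imatinib line 1, and the naive pair mirrors itself because the zero is their mean.

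**Figure D2:**
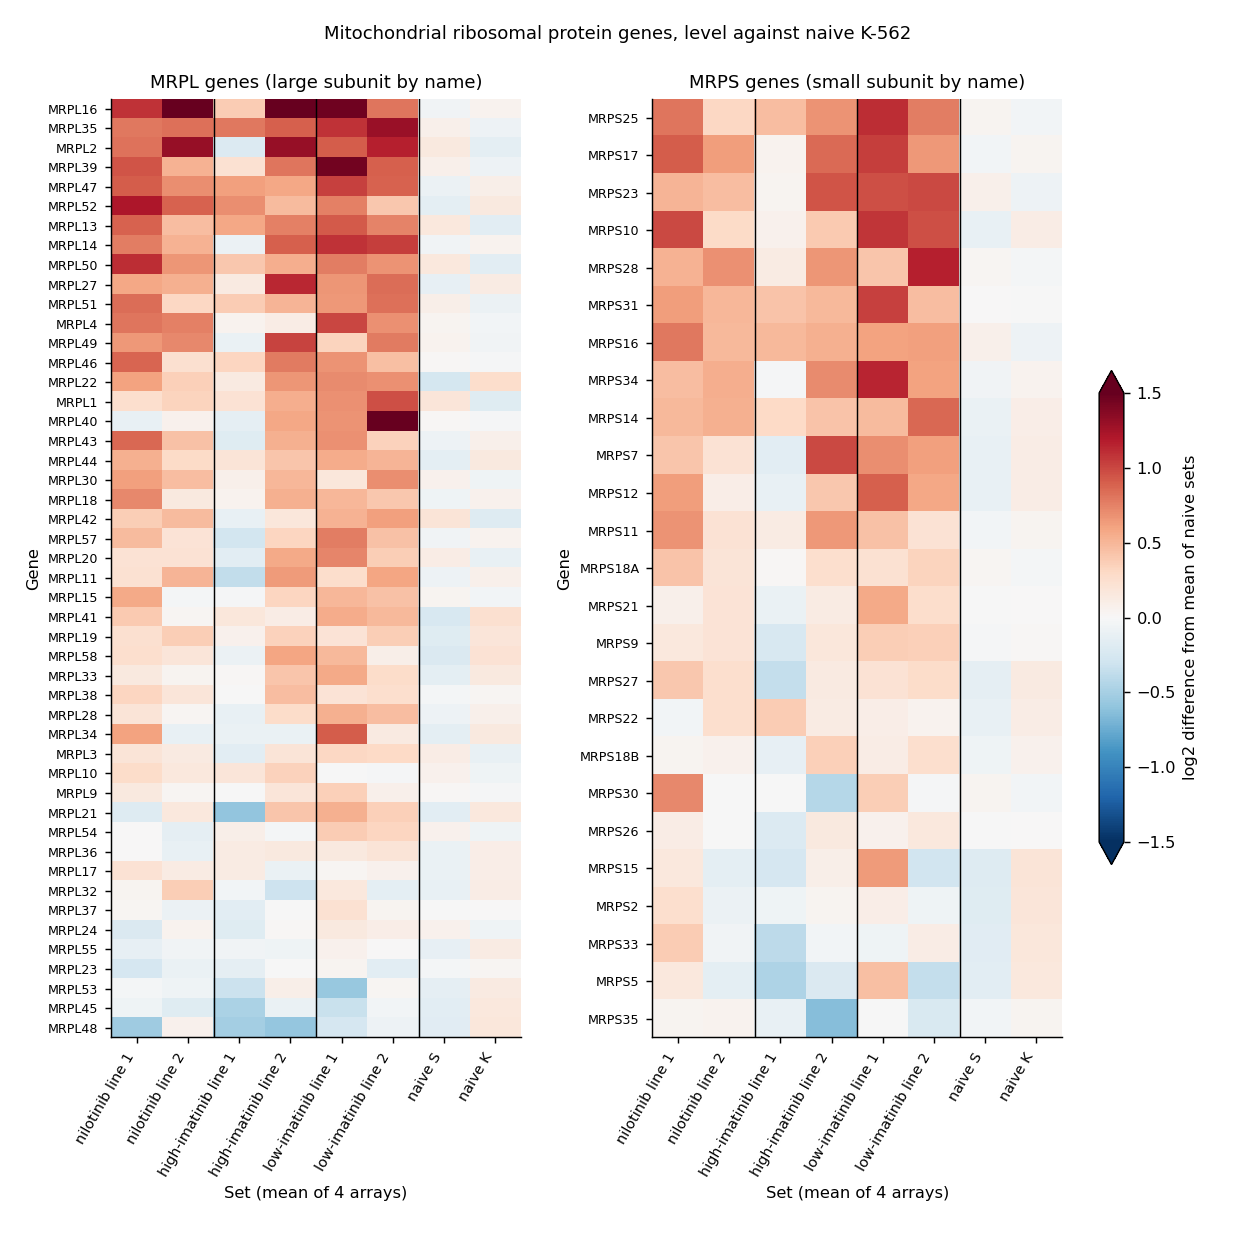
Log2 difference from the mean of the naive sets (colour) for 48 MRPL genes and 25 MRPS genes (vertical axis) in the 8 sets (horizontal axis), each a mean of 4 arrays; genes are ordered by the mean over the 6 resistant lines. Most genes are red in the low-imatinib lines and pale in high-imatinib line 1.

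The resistant lines were set against naive cells in limma, a linear model fitted across all genes, on the 8 set means, with p-values adjusted by the Benjamini-Hochberg method over all 14884 genes and a threshold of 0.05. Over the 6 resistant lines together, 64 of 73 members lay above naive, with a median difference of 0.31, against 0.30 in similar genes and -0.03 in all genes. Of the members, 3 were called higher (4.11%), against 3.21% of all genes and 6.78% of similar genes, and 0 were called lower, against 0.504% of all genes. At an unadjusted p under 0.05, 25 were higher (34.2%, against 18.1% of all genes and 36.7% of similar genes) and 0 lower (against 11.6% of all genes). In 21 members every resistant line lay above both naive sets (28.8%, against 17.0% of all genes and 34.5% of similar genes), and in 0 below both (against 15.9%). These shares are near or below those of genes of the same level. The count of 3 rested on single lines and on the processing, and so did the count over all genes. Almost no gene of any kind was called without a low-imatinib line or a naive set, and 0.0806% with the technical axis taken out. After quantile normalization the member count stayed at 3 (4.11%, against 2.17% of all genes). It was 0 without low-imatinib line 1, low-imatinib line 2, naive S or naive K, 1 when nilotinib line 1 was left out (against 0.873% of all genes called), 8 when nilotinib line 2 was (of 73, against 4.06% of all genes and 7.65% of similar genes), 18 when high-imatinib line 1 was (24.7%, against 11.7% and 22.4%), and 0 with the technical axis taken out, when the median difference was 0.04.

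MRPL35, a large-subunit protein of the bacterial bL35 family, had the smallest p. Its level was 8.46 and 8.50 in the nilotinib pair, 8.46 and 8.58 in the high-imatinib pair, and 8.77 and 8.98 in the low-imatinib pair, against 7.75 and 7.60 in naive S and naive K. All 6 lines lay above both naive sets, and the low-imatinib lines were the highest. The difference was 0.95 ± 0.11 (SE), a 1.93-fold higher signal, with an adjusted p of 0.0313 in limma. MRPL47 belongs to the family of bacterial protein uL29, which lies at the exit of the peptide tunnel. It measured 7.65 and 7.43 in the nilotinib pair, 7.35 and 7.32 in the high-imatinib pair, and 7.76 and 7.63 in the low-imatinib pair, against 6.65 and 6.82 in naive S and naive K. The resistant lines were again all higher, by 0.79 ± 0.12 (SE; adjusted p = 0.0335, limma). MRPS16, a small-subunit protein in which mutations cause a combined respiratory-chain deficiency, measured 9.43 and 9.13 in the nilotinib pair, 9.13 and 9.17 in the high-imatinib pair, and 9.24 and 9.25 in the low-imatinib pair, against 8.71 and 8.56 in naive S and naive K. Its difference was 0.59 ± 0.12 (SE; adjusted p = 0.0484, limma). A dimmer second feature of MRPS16 gave 0.40, in the same direction. The calls held in 9 of 15 alternatives for MRPL35, 8 of 15 for MRPL47 and 5 of 15 for MRPS16, with differences above 0 in each.

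MRPL16, the homologue of bacterial uL16, had the largest difference of any member without passing the adjustment. Its levels were 8.46 and 9.26 in the nilotinib pair, 7.76 and 9.12 in the high-imatinib pair, and 8.83 and 8.18 in the low-imatinib pair, against 7.32 and 7.43 in naive S and naive K. The lines of each resistance lay far apart, though all lay above the naive sets, and the difference of 1.23 ± 0.39 (SE) had an adjusted p of 0.101 in limma. MRPL2, whose level in high-imatinib line 1 lay below both naive sets, followed with 0.88 ± 0.37 (SE; adjusted p = 0.166, limma). MRPL39, a mitochondria-specific protein of the large subunit, had 0.81 ± 0.22 (adjusted p = 0.0780, limma), and MRPL52, also specific to mitochondria, with 0.74 ± 0.16 (adjusted p = 0.0531, limma). At the other end, MRPL48, MRPL45, MRPS35 and MRPL53 had differences of -0.31, -0.20, -0.15 and -0.14. MRPL45 is known to hold the ribosome at the inner membrane beside the tunnel exit. None of these 4 differed beyond the spread between lines, with adjusted p of 0.277, 0.401, 0.529 and 0.625 in limma.

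**Figure D3:**
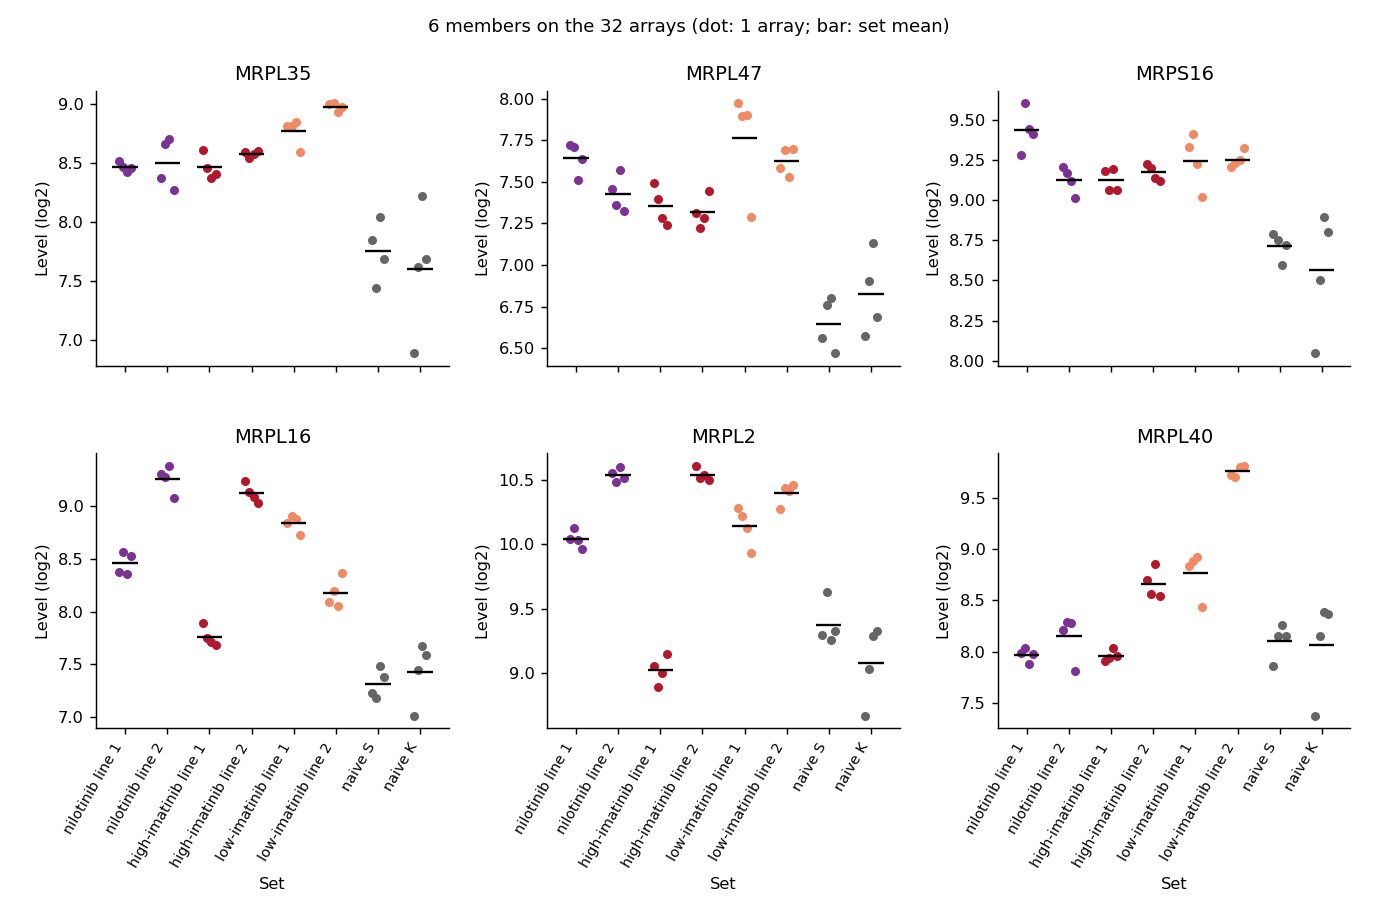
Level (log2, vertical axis) of 6 members on each of 32 arrays by set (horizontal axis), with dots for arrays and bars for set means. MRPL35, MRPL47 and MRPS16 are higher in all 6 resistant lines than in the naive sets, while MRPL16, MRPL2 and MRPL40 differ between lines of a resistance.

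By place in the ribosome, large-subunit genes had a median difference of 0.32 with 2 of 48 called higher, and small-subunit genes 0.24 with 1 of 25 called higher, against 3.21% of all genes and 6.78% of similar genes. Members with a bacterial homologue (42 measured) had a median of 0.32 with 3 called, and those specific to mitochondria (31 measured) 0.29 with 0 called. At an unadjusted p under 0.05, 15 of the 42 and 10 of the 31 were higher, against 18.1% of all genes and 36.7% of similar genes. The 8 proteins around the tunnel exit had a median of 0.25, and the 7 of the central protuberance 0.39. Of the stalk proteins, MRPL11 at the stalk base and MRPL10 were measured, with 0.31 and 0.16. The decoding-site protein MRPS12 had a higher mean in the low-imatinib lines, 7.61 and 7.30, than in naive S and naive K, 6.60 and 6.82, and a difference over all lines of 0.42 ± 0.20 (adjusted p = 0.214, limma). MRPS18A and MRPS30, which structures place in the large subunit despite their names, had 0.24 and 0.11. MRPS18B was represented by 7 features with identical values, which were counted once, and MRPS2 by features that gave 0.03 and -0.17.

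Against naive cells, the low-imatinib lines had the highest member median and no call. It was 0.47 in members and 0.29 in similar genes, and 67 of 73 members lay above 0. The distance between members and similar genes, 0.18, was 0.17 after quantile normalization, 0.18 after a shift to equal medians and 0.16 with the technical axis taken out. In limma 0 members passed the adjustment (0.00% of all genes), the smallest adjusted p being 0.0574 for MRPL35. At an unadjusted p under 0.05, 31 were higher (42.5%, against 14.8% of all genes and 29.1% of similar genes) and 0 lower (against 6.82% of all genes). The members with the largest differences and both lines above both naive sets were MRPL35 with 1.19 ± 0.14, MRPL39 with 1.18 ± 0.27, MRPL40 with 1.17 ± 0.35, MRPL16 with 1.13 ± 0.47 and MRPL14 with 1.06 ± 0.29 (SE). MRPL40, a gene of the DiGeorge syndrome deletion region, measured 8.77 and 9.76 in the low-imatinib lines, against 8.11 and 8.07 in naive S and naive K. When either high-imatinib line was left out of the fit, 8 members passed (of 73, against 4.74% of all genes and 9.28% of similar genes).

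The high-imatinib lines had a member median of 0.20 over naive cells, against 0.24 in similar genes, and the lines disagreed. The median was -0.01 without line 2 and 0.40 without line 1. In limma 0 members passed the adjustment (0.00% of all genes). At an unadjusted p under 0.05, 8 were higher (against 11.1% of all genes and 1326 of 5765 similar genes) and 1 lower (1.37%, against 4.12% of all genes). MRPL16, MRPL35, MRPL13, MRPL27 and MRPL47 had the largest differences with both lines above both naive sets, from 1.07 to 0.60. MRPL48, MRPS35 and MRPS5 lay below both naive sets in both lines, with -0.54 ± 0.22, -0.38 ± 0.19 and -0.34 ± 0.28 (SE). With the technical axis taken out the median was -0.01.

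In the nilotinib lines the member median over naive cells was 0.31, against 0.37 in similar genes, and 62 of 73 members lay above 0. In limma 0 members passed the adjustment, while 0.443% of all genes did. At an unadjusted p under 0.05, 19 were higher (26.0%, against 17.8% of all genes and 35.4% of similar genes) and 0 lower (against 14.1% of all genes). MRPL52 measured 6.85 and 6.52 in the nilotinib lines, against 5.49 and 5.79 in naive S and naive K, a difference of 1.05 ± 0.20 (SE; adjusted p = 0.0574, limma). MRPL50 had 0.88 ± 0.19 and MRPL35 0.80 ± 0.14, with adjusted p of 0.0615 and 0.0520 in limma. MRPL23, the tunnel-exit protein of the uL23 family, lay below both naive sets in both lines by a small amount, -0.18 ± 0.14 (SE). With the technical axis taken out the member median turned to -0.05, and similar genes gave 0.06.

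Between resistances, members were lower in high-imatinib than in low-imatinib lines in their median without a single call. The median difference was -0.28, against -0.03 in similar genes, and 68 of 73 members lay below 0. In limma 0 members passed the adjustment (0.00% of all genes), 0 were higher at an unadjusted p under 0.05 (against 1.71% of all genes), and 13 were lower (17.8%, against 3.14% of all genes and 4.86% of similar genes). The median stayed between -0.30 and -0.23 under the other scalings and with the technical axis taken out. Leaving out high-imatinib line 1 made it -0.10, and leaving out line 2 made it -0.40. MRPL4 of the uL4 family had the smallest p, with 7.79 and 7.85 in the high-imatinib lines, against 8.74 and 8.42 in the low-imatinib lines. Its groups did not overlap, and the difference of -0.76 ± 0.14 (SE) had an adjusted p of 0.799 in limma. MRPL40 and MRPS10 had differences of -0.95 ± 0.35 and -0.79 ± 0.25, and MRPL10, MRPS22 and MRPL53 had the highest, 0.28, 0.17 and 0.15.

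Nilotinib lines against low-imatinib lines gave a member median of -0.13, against 0.04 in similar genes. In limma 0 members passed the adjustment (0.00% of all genes), with 0 higher (against 4.25% of all genes) and 4 lower (5.48%, against 2.65% of all genes and 2.10% of similar genes) at an unadjusted p under 0.05. MRPL40 was the most different, with 7.97 and 8.15 in the nilotinib lines, against 8.77 and 9.76 in the low-imatinib lines, a difference of -1.20 ± 0.35 (SE; adjusted p = 0.624, limma). MRPL52, at 0.47 ± 0.20, was the highest. Nilotinib lines against high-imatinib lines gave 0.12, against 0.10 in similar genes. In limma 0 members passed the adjustment (0.00% of all genes), with 1 higher (1.37%, against 3.79% of all genes) and 0 lower (against 2.55% of all genes) at an unadjusted p under 0.05. The 1 member was MRPL4, at 8.53 and 8.49 in the nilotinib lines, against 7.79 and 7.85 in the high-imatinib lines. The sign of the member median in this last comparison was not stable. Taking out the technical axis turned it to -0.02, where similar genes also gave -0.02, and 33 members lay above 0, against 56 before. It was -0.04 when line 1 of the high-imatinib pair was dropped, and 0.29 when line 2 was. These comparisons share lines with each other, so their values are not independent.

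The high-imatinib lines differed from each other in more members than any other pair of sets of a group, and also in more of all genes. In either direction 40 of 73 members were called (54.8%, against 33.0% of all genes and 51.5% of similar genes). That share lay near that of similar genes, while the split between lower and higher did not. Here the test is against the spread of technical arrays and says nothing of the spread between cultures. Line 1 was lower than line 2 in 38 of 73 members (52.1%, against 19.8% of all genes and 32.2% of similar genes) and higher in 2 (2.74%, against 13.2% of all genes and 19.3% of similar genes). The member median was -0.33, against -0.09 in similar genes. Across the planned scalings, filters and feature choices the number lower was 38 or 39. MRPL2, of the uL2 family at the peptidyl transferase centre, measured 9.03 in line 1 and 10.54 in line 2, a difference of -1.52 ± 0.11 (SE, n = 4 technical arrays each; adjusted p = 2.13e-13, limma). The naive sets lay at 9.38 and 9.08, beside line 1. MRPL16 differed by -1.36 ± 0.11 and MRPS7, of the uS7 family, by -1.15 ± 0.11, with adjusted p of 3.5e-12 and 4.83e-10 in limma. MRPS35 and MRPS30 were the members higher in line 1, by 0.53 ± 0.10 and 0.43 ± 0.10 (adjusted p = 5.73e-05 and 0.000604, limma).

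**Figure D4:**
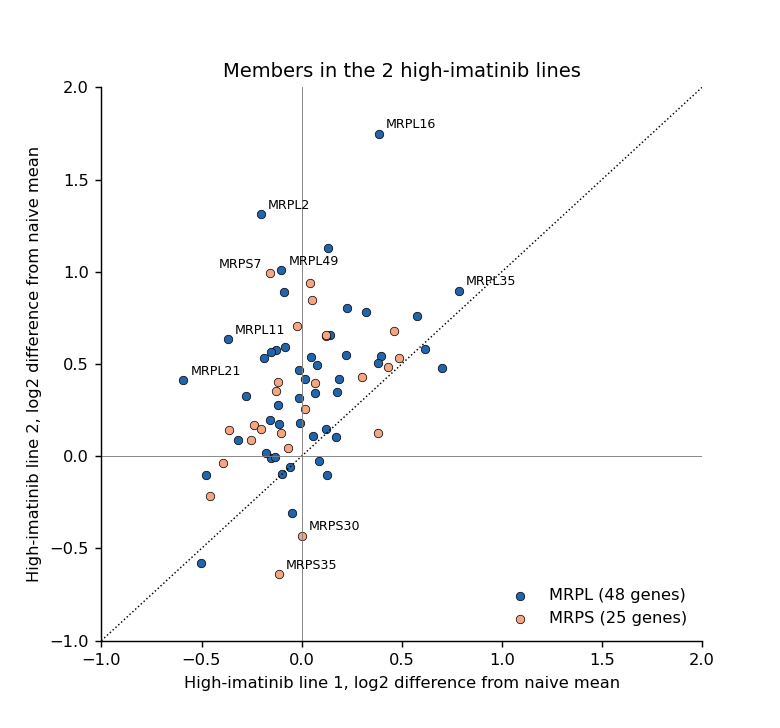
Difference from the mean of the naive sets (log2) of each member in high-imatinib line 1 (horizontal axis) and line 2 (vertical axis), with MRPL and MRPS genes in 2 colours and a dotted line of equality. Most points lie above the line, MRPL2 and MRPL16 far above it, and MRPS30 and MRPS35 below it.

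Differences of members between lines of a resistance went partly along with those of genes near them. In the high-imatinib pair, line 1 was called lower in 6 of 7 members on chromosome 17 and in 5 of 6 on chromosome 6. On chromosome 11 it was lower in 4 of 7, which were MRPL11, MRPL16, MRPL21 and MRPL49. Over all chromosomes, 52.1% of members were called lower, against 19.8% of all genes and 32.2% of similar genes. The median difference of line 1 from line 2 over all members of these chromosomes was -0.68, -0.49 and -1.002, against -0.12, -0.03 and -0.14 over their other measured genes. These chromosomes were chosen after their values were seen. Against the median of the 10 measured genes on each side, members' differences between lines correlated with Pearson's r of 0.571 in the low-imatinib pair, 0.440 in the high-imatinib pair and 0.524 in the nilotinib pair, and 0.104 between naive S and naive K. These values run across 73 genes that share arrays and, in places, neighbours, and describe these libraries without a test. For MRPL40, whose difference between low-imatinib lines 1 and 2 was -0.99, the neighbours had a median of -0.53. For MRPL2, whose difference between high-imatinib lines 1 and 2 was -1.52, they had -0.15. What moves members with their neighbours was not tested. Of the divergent pairs, 9 had both genes measured, and in 7 of them member and neighbour had a difference of the same sign over all lines against naive. All members of these pairs lay above naive, as did 77.2% of similar genes and 47.6% of all genes, so the count is near that of similar genes. MRPL27 and EME1, a subunit of a DNA endonuclease, differed by -0.999 and -0.66 between high-imatinib lines 1 and 2. MRPL49 and FAU, which encodes a cytosolic ribosomal protein, differed by -1.11 and -0.67. Opposite signs there were found for MRPL50 and ZNF189, at -0.14 and 0.64, and for MRPS2 and PIERCE1, at -0.11 and 0.20. The remaining pairs had the same sign.

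Line 1 and line 2 of the other resistances differed in fewer members, and in fewer of all genes. In the low-imatinib pair line 1 was higher in 16 (21.9%, against 9.96% of all genes and 14.4% of similar genes) and lower in 7 (9.59%, against 8.77% and 14.5%). The largest were MRPS15, MRPS5 and MRPL34 with 0.93, 0.82 and 0.76, and MRPL40, MRPS28 and MRPL53 with -0.99, -0.75 and -0.60. In the nilotinib pair line 1 was higher in 19 (26.0%, against 16.1% of all genes and 26.3% of similar genes) and lower in 5 (6.85%, against 11.5% and 13.6%). MRPS30, MRPL34 and MRPS10 had 0.73, 0.72 and 0.70, and MRPL16, MRPL48 and MRPL2 had -0.80, -0.61 and -0.50. Naive S was higher than naive K in 0 members (against 6.46% of all genes) and lower in 8 (of 73, against 5.90% of all genes and 6.97% of similar genes), among them MRPL22, MRPL41 and MRPL58, a peptidyl-tRNA hydrolase built into the ribosome. This last count depended on processing, at 3 without naive S array 2 (4.11%, against 7.57% of all genes) and 25 in either direction with the technical axis taken out (34.2%, against 19.3%).

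Mitochondrial translation, assembly, DNA expression, import and chaperone genes had medians over naive cells above that of members, 0.31, while regulators of biogenesis, respiratory chain subunits and cytosolic ribosomal proteins had medians below it. Over all 6 resistant lines the median was 0.49 in 10 mitochondrial translation factors with 1 called higher, 0.36 in 26 ribosome assembly and RNA modification factors with 3 called, 0.42 in 14 genes for mitochondrial DNA expression with 0 called, and 0.50 in 26 import genes with 1 called. It was 0.37 in 9 mitochondrial chaperones and proteases with 0 called, 0.25 in 7 regulators of mitochondrial biogenesis with 1 called, 0.23 in 16 nuclear-encoded respiratory chain subunits and -0.06 in 53 cytosolic ribosomal proteins, with 0 called in either group. Of all genes 3.21% were called higher, and of genes of the members' level 6.78%. The 3 assembly genes were FASTKD2 and MRM2, which act on mitochondrial ribosomal RNA, and SPNS1, a lysosomal transporter that the list also holds, and the import gene was TOMM34; FASTKD2, MRM2 and TOMM34 are named after their values were seen. MTRF1L, a mitochondrial release factor, was higher by 0.81 ± 0.12 (adjusted p = 0.0340, limma), at 8.91 and 8.89 in the nilotinib pair, 8.93 and 8.65 in the high-imatinib pair, and 8.96 and 8.96 in the low-imatinib pair, against 8.18 and 7.97 in naive S and naive K. NRF1, the transcription factor whose motif was searched above, was higher by 0.46 ± 0.09 (adjusted p = 0.0494, limma). After quantile normalization 1 of these 6 genes was called, TOMM34, and NRF1 had 0.31 (adjusted p = 0.118, limma). With every array feature tested 0 of the 6 were called. None of these 6 genes was called with the technical axis taken out, when NRF1 had 0.08 ± 0.09 and MTRF1L 0.52 ± 0.12 (adjusted p = 0.739 and 0.181, limma), or without low-imatinib line 1, low-imatinib line 2, naive S or naive K. Leaving out nilotinib line 1 left 1 of them called. In high-imatinib line 1 the medians of all these lists except chaperones and proteases were also the lowest of the 6 lines. Among them were mitochondrial DNA expression, import and cytosolic ribosomal protein genes, at -0.08, 0.06 and -0.31. The median of genes of similar mean level was the lowest there too, at 0.18. Of the mitochondrial ribosomal proteins with other names, CHCHD1 measured 0.54 ± 0.14, PTCD3 0.46 ± 0.17 and DAP3 0.22 ± 0.15, with adjusted p of 0.0723, 0.126 and 0.354 in limma.

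**Figure D5:**
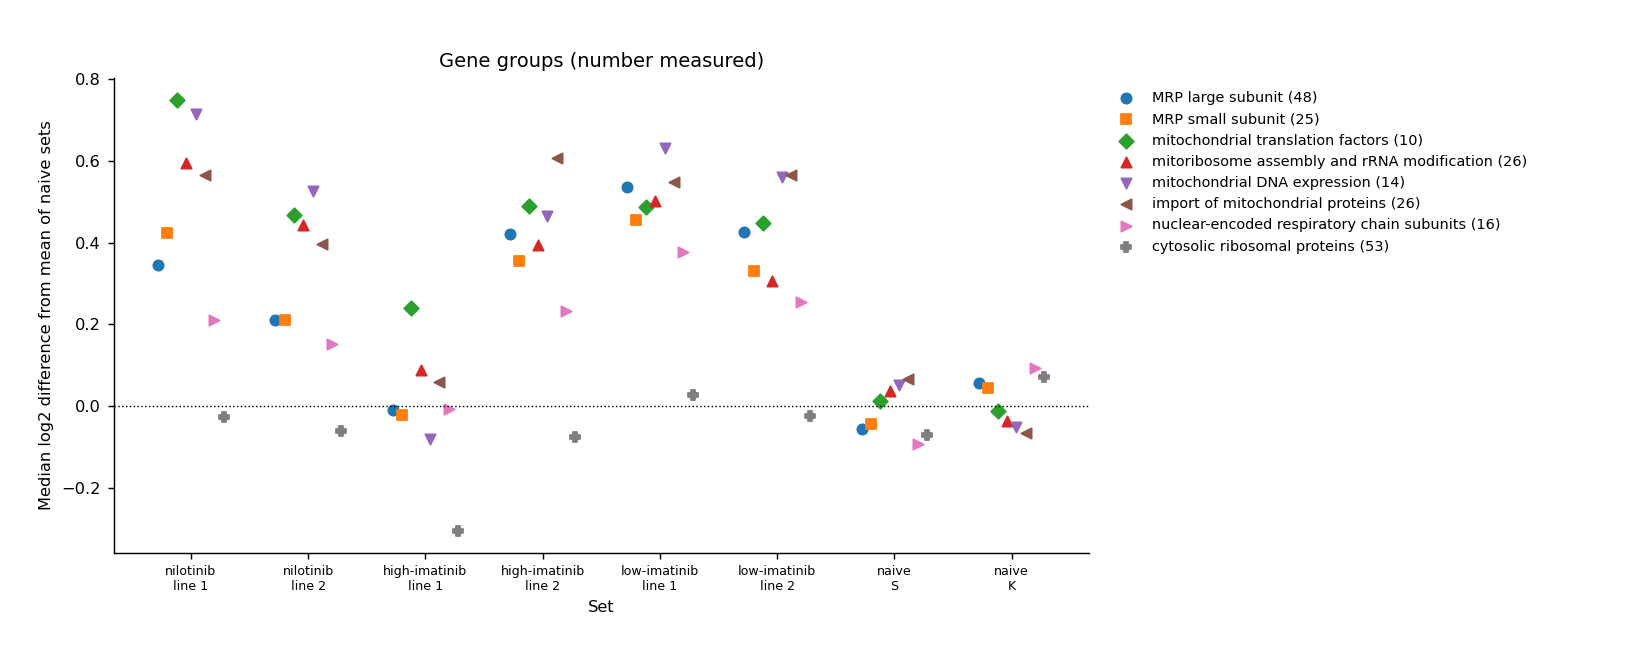
Median log2 difference from the mean of the naive sets (vertical axis) of 8 gene groups in each of the 8 sets (horizontal axis), with the number of measured genes in the legend. Both MRP subunits lie between 0.21 and 0.54 in 5 resistant lines and near 0 in high-imatinib line 1, and cytosolic ribosomal proteins lie near or below 0 in all sets.

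An array value is relative to the total signal of its array, so less RNA per cell and fewer cells of a state cannot be told apart. Many MRP genes have processed pseudogenes, and whether features of members also read these was not tested. Of the pseudogenes on the array, MRPL42P5 had the largest difference over all lines against naive, 0.75 ± 0.33, with an adjusted p of 0.176 in limma.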

How the data were processed

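RNA isolated with the miRVana kit was hybridised from 100 ng with the WT PLUS kit, per the labels' protocols. The authors' deposited values are on a log2 scale, inferred from their range, and Transcriptome Analysis Console 4.0 is listed in the submitters' processing notes. Their normalization is not stated by any source used here. Of 53617 features, 16098 had 1 gene symbol, all matched to RefSeq by gene ID, and 37519 were unnamed here. Linear models in limma 3.58.1 (R 4.3.3) took the 8 set means, with 4 residual degrees of freedom, or all 32 arrays for sets of 1 group, with 24. The scripts were tested on simulated data that held the spread between technical arrays and no spread between lines. That test therefore does not show how the fit of set means behaves under the spread between lines. The number of sets, 2 in each group, limits the precision between groups, and the number of arrays that between sets of 1 group. Alternatives were other scalings, feature rules, filters and blocks, and leaving out each set or array. Members were named by the size or p of their difference, their range, their level or their role, by a written rule. The members and lists were chosen with earlier results of these data known. Genes of aminoacyl-tRNA synthetases of mitochondria and of mitochondrial DNA are not reported here.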

Additional observations from a re-analysis of the deposited data

Results flagged for a closer look

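Over the 6 resistant lines, the median level of the 73 members stood apart in high-imatinib line 1. It was 7.55 there, and the gap to the next line took 0.682 of the whole range. MRPL2 stood apart in the same line, at 9.03, with a gap of 0.670 of the range. Such a gap is found by chance in about 1 in 20 groups, and 25 groups were looked at. MRPS35 differed from naive cells by 0.0476 in the nilotinib lines and by -0.38 in the high-imatinib lines, with both lines of each resistance on the same side of both naive sets. This difference in direction was not tested, and it is 1 of 102 pairs of members and resistances looked at.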

How the results depend on the processing

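The number of members called in all resistant lines against naive was 3. Without the dimmest 40% of genes it was 7 (9.72%, against 8.70% of all genes called), and after a shift to equal medians 13 (17.8%, against 11.3%). It was 30 (41.1%, against 24.6%) when sets were a random block in a fit of 32 arrays. With every array feature tested it was 0 (0.0298% of all features), and with the technical axis taken out 0 (0.0806% of all genes). Quantile normalization left it at 3 (4.11%, against 2.17%). Over leave-outs it ran from 0 to 18. Of similar genes 22.8% were called with equal medians and 45.1% with the random block. With the axis taken out the median difference was 0.0375. A shift to equal medians moved the median of all genes to 0.10, against -0.03 as deposited. For low-imatinib against naive, the count of 0 was 3 (4.11%, against 1.16% of all genes) with equal medians, 26 (35.6%, against 13.4%) with only these groups in the fit and 32 (43.8%, against 18.0%; similar genes 34.1%) with the random block, and 0 to 8 over leave-outs. Its median was 0.3337 after quantile normalization, 0.576 with equal medians and 0.2403 with the axis out. For nilotinib against naive, the count was 8 (of 73, against 10.9%) with equal medians and 23 (31.5%, against 24.8%) with the random block. Over leave-outs the count ran from 0 to 8. The 8 (of 73, against 7.98% of all genes and 15.2% of similar genes) came when either high-imatinib line was left out. The median for nilotinib was 0.1519 after quantile normalization, 0.477 with equal medians and -0.0458 with the axis out. With the random block, 8 members were called in high-imatinib against naive (of 73, against 11.3%) and 3 in high-imatinib against low-imatinib (4.11%, against 2.77%). With that block, 1 was called in nilotinib against low-imatinib (1.37%, against 3.70% of all genes) and 1 in nilotinib against high-imatinib (1.37%, against 1.35%). Naive S against naive K had 8 calls (of 73, against 12.4% of all genes). The count was 15 (20.8%, against 20.7%) without dim genes, 23 (31.5%, against 18.4%) after quantile normalization and 5 (6.85%, against 10.4%) with equal medians. With the axis out it was 25 (34.2%, against 19.3%). Over leave-outs it ran from 3 (4.11%, against 7.57%) to 12 (16.4%, against 8.71%).

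Over leave-outs, MRPL53 in high-imatinib against low-imatinib ran from -0.15 to 0.45, MRPL16 in nilotinib against low-imatinib from -0.0491 to 0.75, and in nilotinib against high-imatinib MRPL2 ran from -0.25 to 1.26 and MRPL40 from -0.60 to 0.10, so each turned its sign. The line number was shared between resistances. Deviations of same-numbered lines correlated at 0.139 for high-imatinib and low-imatinib, 0.188 for nilotinib and low-imatinib and -0.201 for nilotinib and high-imatinib. With so few lines these values cannot decide whether same-numbered lines belong together, and no label states it. With the line number as a replicate block, 0 members were called in each comparison between resistances. Of the alternatives for single members, 925 kept direction and side of the threshold, 73 passed it newly, 33 no longer did, and 5 turned. Causes were not tested. Only 2 sets a group and the brightness of a feature limit what could be called.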
